A study of Homo sapiens with 12 samples.

Results

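ATP-binding cassette (ABC) transporters are membrane proteins that use ATP to move lipids, bile constituents, drugs, conjugates, peptides, heme precursors and fatty acyl groups across membranes. The 30 ABC genes described here are the rows of the count table whose symbol begins with ABCA to ABCG followed by a digit, and they are 30 of 13511 genes in the table. The rule reads the symbol alone. ABCA11P, ABCC6P1 and ABCC6P2 carry such symbols and were left out as pseudogenes. There were 5 genes of subfamily ABCA, 7 of ABCB, 8 of ABCC, 3 of ABCD, 1 of ABCE, 3 of ABCF and 3 of ABCG. GENCODE 29 annotates 45 protein-coding genes with symbols of this form. Those outside the table were not analysed here.

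Poly(A) RNA was sequenced from HepG2, an established human hepatoma line, in 4 groups of 3 libraries each. The A-485 and Dox group was pretreated for 1 h with the CBP and p300 acetyltransferase inhibitor A-485 at 5 µM, and then received A-485 together with 30 µg/ml doxycycline for 24 h. The A-485 group received the inhibitor alone, the Dox group received DMSO, the solvent, with doxycycline, and the DMSO group received the solvent alone over the same times. Doxycycline inhibits translation on mitochondrial ribosomes. All groups share the wild-type HepG2 background, the pretreatment step and a medium with no other antibiotic. A single cell line was used. Whether replicates are separate cultures is not stated in the labels, and p-values therefore reflect the spread among libraries alone, which may be technical.

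In a hepatocyte, ABC proteins are sorted by membrane. ABCA1 on the basolateral face loads phospholipid and cholesterol onto apolipoprotein A-I. ABCB4, ABCC2, ABCB1, ABCG2 and the ABCG5-ABCG8 pair work at the bile canaliculus, and ABCC3 and ABCC6 work at the basolateral face. ABCB8 and ABCB10 lie in the inner mitochondrial membrane, and ABCD3 carries acyl-CoA into peroxisomes. ABCE1 and the ABCF proteins have ATP-binding cassettes but no membrane span, and they act on ribosomes or translation factors. Nuclear receptors such as LXR, FXR, PXR and CAR, and the oxidant sensor NRF2, are known regulators of many of these genes in liver.

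Promoters of 25 of the 30 genes were found in the RefSeq table (GRCh38.p14), each spanning 250 bases before to 50 bases after a start site, and 37 windows were found in all because some genes have several. ABCB4, ABCC1 and ABCC3 were among those with no entry. The windows of 4 genes are shown because these genes set out the contrasts described below. ABCA1 fell with A-485. ABCC2 had the highest level per length in DMSO libraries and fell with A-485. ABCA3 was the only ABC gene that rose at least 2-fold with A-485 on counts scaled by TMM, though not on library totals. ABCG8 shares its window with ABCG5 while the pair differed in response. In the ABCA1, ABCC2 and ABCA3 windows, capitals mark every motif match found on either strand. In the ABCG8 window, which held none of the motifs, capitals mark the 131 bases between the starts of ABCG5 and ABCG8. The ABCA1 window is chr9:104928106-104928405 (minus strand), ABCC2 is chr10:99782390-99782689 (plus strand), ABCA3 is chr16:2340679-2340978 (minus strand) and ABCG8 is chr2:43838721-43839020 (plus strand), each read 5′ to 3′ on the gene's strand.
ABCA1: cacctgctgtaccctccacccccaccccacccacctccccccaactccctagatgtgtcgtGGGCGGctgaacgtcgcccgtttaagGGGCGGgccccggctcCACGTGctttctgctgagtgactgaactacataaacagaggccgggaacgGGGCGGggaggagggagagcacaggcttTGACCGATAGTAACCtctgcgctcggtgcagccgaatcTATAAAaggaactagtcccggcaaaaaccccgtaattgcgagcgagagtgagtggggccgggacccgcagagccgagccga
ABCC2: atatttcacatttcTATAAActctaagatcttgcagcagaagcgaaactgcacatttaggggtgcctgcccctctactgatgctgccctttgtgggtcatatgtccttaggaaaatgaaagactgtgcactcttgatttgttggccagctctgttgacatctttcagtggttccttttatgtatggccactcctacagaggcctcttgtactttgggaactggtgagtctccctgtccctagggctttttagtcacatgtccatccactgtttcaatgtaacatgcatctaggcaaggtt
ABCA3: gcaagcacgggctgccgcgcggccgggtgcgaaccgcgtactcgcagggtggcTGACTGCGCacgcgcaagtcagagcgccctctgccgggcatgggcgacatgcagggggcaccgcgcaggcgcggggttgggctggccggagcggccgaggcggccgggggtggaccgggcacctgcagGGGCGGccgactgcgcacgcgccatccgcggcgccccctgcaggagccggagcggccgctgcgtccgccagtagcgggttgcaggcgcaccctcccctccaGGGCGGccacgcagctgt
ABCG8: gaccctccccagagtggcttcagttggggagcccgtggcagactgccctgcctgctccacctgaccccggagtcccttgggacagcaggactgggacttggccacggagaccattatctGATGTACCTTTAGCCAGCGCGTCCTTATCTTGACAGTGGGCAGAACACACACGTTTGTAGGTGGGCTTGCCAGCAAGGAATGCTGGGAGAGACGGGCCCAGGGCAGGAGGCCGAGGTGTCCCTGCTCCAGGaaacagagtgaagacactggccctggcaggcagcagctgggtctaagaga

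Positions are counted from the start base as 0. The ABCA1 window held the E-box CACGTG at -147, GC boxes (GGGCGG) at -189, -163 and -97, a TATA box (TATAAA) at -31 and a DR4 repeat, the arrangement that LXR prefers (TNACC, then 5 bases of any kind, then TNACC), at -69. The DR4 letters occurred in 1 of the 37 ABC windows and in 0.626% of 35116 promoter windows of the same length. The ABCC2 window held a TATA box at -236 and no other motif searched, and 45.0% of its bases were G or C. The ABCA3 window was 78.0% G or C and held an antioxidant response element core (TGACNNNGC) at -197 and GC boxes at -69 and 32. Across all 35116 windows, the E-box was present in 7.26%, the antioxidant response element core in 13.3%, the GC box in 45.0%, CCAAT in 34.6% and the TATA box in 11.5%. Among the 37 ABC windows these motifs were present in 18.9%, 29.7%, 56.8%, 16.2% and 10.8%, in the same order. Windows of the same gene can overlap, as some of ABCG2 do, so a site can be counted more than once. The median share of G or C was 65.7% in ABC windows and 58.7% in all windows. Differences between these shares were not tested. A DR1 repeat, the arrangement of HNF4A and PPAR sites (AGGNCA, 1 base of any kind, AGGNCA), was present in 0.310% of all windows and in 0 of the 37 ABC windows. The starts of ABCG5 (minus strand) and ABCG8 (plus strand) lie 132 bases apart on chromosome 2, and their windows share 231 bases. All matches are letter matches and show no binding.

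The libraries held 46600324 to 51773300 counts in genes. Dox replicate 1 stood apart from the other 11 libraries. The biological coefficient of variation over all genes was 20.7% with it and 1.52% without it, so results are given with and without this library. Its CPM (read counts per library total, scaled by TMM) was at least 2-fold below the log2 mean of Dox replicates 2 and 3 in 9 of the 30 ABC genes, against 15.8% of all genes. It was at least 2-fold above that mean in 3, namely ABCB8, ABCF2 and ABCF3, against 17.1% of all genes. The summed CPM of 10 hepatocyte markers, ALB and APOB among them, ranged from 21459.8 to 21738 in A-485 and Dox libraries, from 23544 to 23735 in A-485 libraries, from 53560.2 to 67912 in Dox libraries and from 66017 to 66561 in DMSO libraries. Of 4 biliary markers 3 were in the table, and their sums were 412 to 418, 486 to 504, 919 to 928 and 1041 to 1054.5 CPM in the same order of groups. The biliary sums mostly followed SOX9, which averaged 51.7 CPM in A-485 and 530 CPM in DMSO libraries. KRT19 averaged 226 and 225 CPM and EPCAM 216 and 294 CPM in those groups. Of 5 endothelial markers 2 were in the table, at sums of 5.54 to 12.5 CPM over all libraries, and PDGFRB was the only 1 of 5 stromal markers, at 0.600 to 5.90 CPM. Of 5 leukocyte markers 3 were in the table, with sums of 301 to 1286 CPM that were almost all LYZ. The part of these marker shifts in the ABC results was not tested, and in bulk RNA fewer cells of a kind and less RNA per cell cannot be told apart.

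Per kilobase of exon, ABCC2 had the highest mean level in DMSO libraries, 55.4 ± 0.261 CPM per kb (SD, n = 3), followed by ABCF1 at 44.2 ± 0.481. ABCD3 (21.8 ± 0.409) and ABCC1 (21.1 ± 0.509) were lower and lay within about their SDs of each other. ABCB1 (16.2 ± 0.115) and ABCB10 (15.9 ± 0.250) were neighbours that did not differ beyond their spread. ABCB6 at 0.399 ± 0.0492 and ABCA3 at 0.235 ± 0.00873 were lowest. These levels use the full exon length, of which 54.7% in ABCB6 and 45.8% in ABCF2 is shared with another gene on the same strand. Reads there may have been left out, so the levels of ABCB6 and ABCF2 may be too low. The median ABC gene was at 4.68 CPM per kb in A-485 and Dox, 4.92 in A-485, 5.93 in Dox and 4.73 in DMSO libraries, against 4.74, 4.73, 5.18 and 4.88 for all genes in the same order. ABCC2 ranked 3 of 30 in A-485 libraries, where ABCF1 and ABCC1 stood above it, and 1 of 30 in DMSO libraries. ABCC3 ranked 28 in A-485 libraries and 19 in DMSO libraries. ABCG2 ranked 27 in A-485 libraries and 20 in DMSO libraries.

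**Figure D1:**
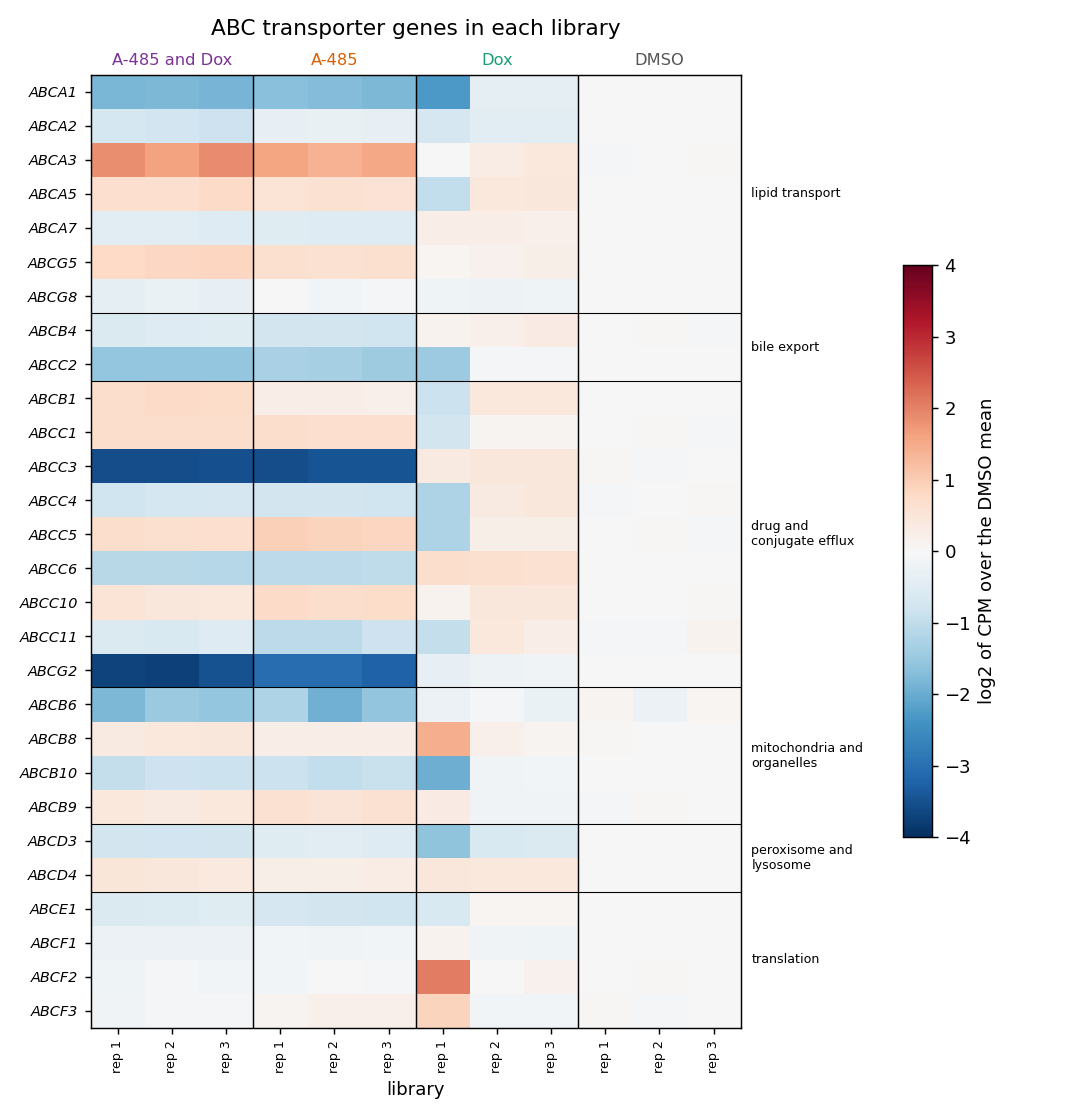
Each row is 1 of 28 ABC genes and each column a library, and colour gives the log2 of CPM over the mean of the DMSO libraries, with genes grouped by role. ABCC3 and ABCG2 are dark blue in all 6 libraries with A-485, ABCA3 is red in the same libraries, and Dox replicate 1 departs from Dox replicates 2 and 3 in many rows.

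The comparison of A-485 with DMSO asks what inhibition of CBP and p300 changes in otherwise untreated cells. ABCC3, an exporter of conjugates to blood, fell 11.2-fold, and ABCG2, the breast cancer resistance protein, fell 8.57-fold. ABCA1, ABCB6, ABCC2 and ABCC6 fell between 2.05- and 3.33-fold, and ABCA3 rose 2.84-fold. In edgeR's quasi-likelihood test with Benjamini-Hochberg adjustment over all 13511 genes and a threshold of 0.05, 8 of the 30 ABC genes rose (26.7%, against 26.3% of all genes) and 12 fell (40.0%, against 27.1%). The share that rose is near the background. Of the genes called, 1 rose at least 2-fold (9.67% of all genes did) and 6 fell at least 2-fold (15% of all genes did). The A-485 libraries lay wholly above the DMSO libraries in 12 ABC genes (46.3% of all genes) and wholly below in 17 (43.6%), and only ABCF2 overlapped. Without Dox replicate 1, which enters this comparison only through the shared estimate of spread, 12 rose and 16 fell (46.6% and 43.7% of all genes), and the 20 genes called with all libraries were all called again in the same direction.

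Scaling moved these counts. On TMM-scaled totals the median log2 fold change was -0.22 over the 30 ABC genes and 0.04 over all genes, and on library totals it was 0.13 and 0.39, so the ABC median was below that of all genes on both and its sign turned. On library totals 11 ABC genes rose and 7 fell (40.7% and 18.1% of all genes). The set at 2-fold or more changed too. On library totals ABCC5 (1.25), ABCC10 (1.08) and ABCC1 (1.04) were called at least 2-fold higher beside ABCA3 (1.85), and ABCC6 (-0.69) fell less than 2-fold.

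**Figure D2:**
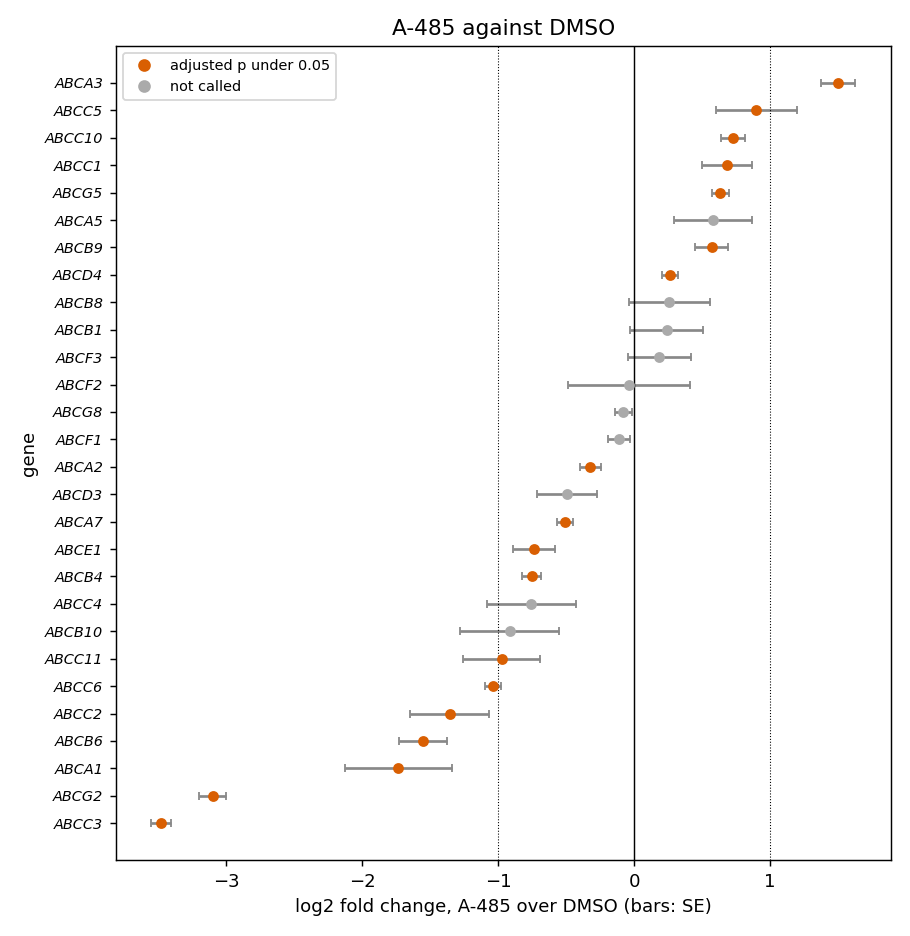
Points give the log2 fold change of A-485 over DMSO for 28 ABC genes, with bars of 1 SE, orange where the adjusted p is under 0.05 and grey elsewhere, and dotted lines mark 2-fold. ABCC3 and ABCG2 lie beyond -3, ABCA3 alone lies beyond 1.

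Among the 7 genes of lipid transport, 2 rose, 3 fell and 2 were not called, which is near the shares over all genes (26.3% of all genes rose and 27.1% fell). ABCA1 had 37.2, 38.5 and 37.1 CPM in the A-485 and Dox libraries, 42.0, 39.9 and 38.3 CPM in the A-485 libraries, 27.1, 104 and 105 CPM in the Dox libraries and 131, 136 and 134 CPM in the DMSO libraries. All 6 libraries with A-485 lay at 42.0 CPM or below and the DMSO libraries at 131 CPM or above, while Dox replicate 1 was the lowest of the 12. ABCA1, the cholesterol and phospholipid exporter, fell 3.33-fold with A-485 (log2 fold change -1.73 ± 0.39 (SE), edgeR adjusted p = 0.00401). ABCA3 had 6.60, 5.62 and 6.80 CPM in the A-485 and Dox libraries, 5.5, 4.79 and 5.35 CPM in the A-485 libraries, 1.85, 2.27 and 2.44 CPM in the Dox libraries and 1.78, 1.82 and 1.91 CPM in the DMSO libraries. ABCA3, known for loading surfactant phospholipid into lamellar bodies of lung cells, was above every Dox and DMSO library in all 6 libraries with A-485 and rose (log2 fold change 1.504 ± 0.12 (SE), edgeR adjusted p = 3.98e-06). ABCA2, an endolysosomal lipid transporter, fell (log2 fold change -0.32 ± 0.08 (SE), edgeR adjusted p = 0.00620), but its log2 fold change was 0.03 on library totals. ABCA7, a phospholipid exporter studied in microglia, averaged 57.2 ± 0.533 CPM in the A-485 libraries and 81.2 ± 0.522 CPM in the DMSO libraries (SD, n = 3 each) and fell (log2 fold change -0.51 ± 0.06 (SE), edgeR adjusted p = 3.88e-05), a call lost on library totals at -0.16. ABCG5 and ABCG8 form 1 obligate sterol exporter for bile, and their responses differed in size. ABCG5 averaged 28.0 ± 0.5001 CPM in the A-485 libraries and 18.0 ± 0.333 CPM in the DMSO libraries and rose (log2 fold change 0.63 ± 0.06 (SE), edgeR adjusted p = 1.44e-05). ABCG8 averaged 18.7 ± 0.712 CPM in the A-485 libraries and 19.7 ± 0.289 CPM in the DMSO libraries and was not called (log2 fold change -0.08 ± 0.06 (SE), edgeR adjusted p = 0.318). The difference between the 2 genes was not tested, and a small share of the exons of each (3.68% of ABCG5, 1.35% of ABCG8) overlaps the other on the opposite strand. ABCA5, an endolysosomal protein, was not called (log2 fold change 0.58 ± 0.29 (SE), edgeR adjusted p = 0.116) but was without Dox replicate 1 (0.58 ± 0.04, edgeR adjusted p = 3.36e-20).

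**Figure D3:**
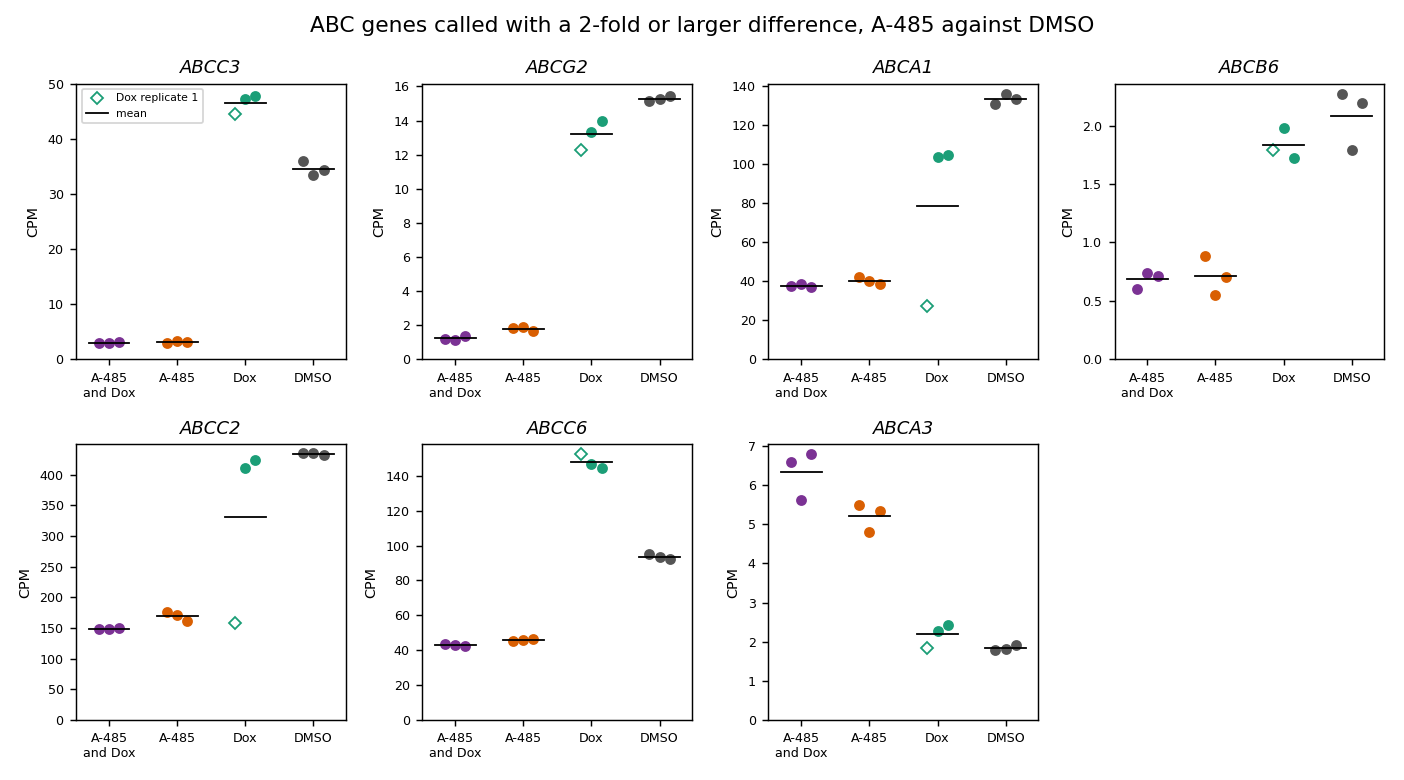
Each panel shows CPM in every library by group for the 7 ABC genes called with at least a 2-fold difference between A-485 and DMSO, with a bar at the group mean and Dox replicate 1 as an open diamond. The A-485 libraries do not overlap the DMSO libraries in any panel, and ABCA1 and ABCC2 show Dox replicate 1 near the libraries with A-485.

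ABCC2 and ABCB4, the genes classed here under bile export, fell, while in the bile sterol pair ABCG5 rose and ABCG8 was not called. ABCC2 had 148, 149 and 150.1 CPM in the A-485 and Dox libraries, 175, 171 and 162 CPM in the A-485 libraries, 158, 411 and 424 CPM in the Dox libraries and 435, 435 and 432 CPM in the DMSO libraries. The A-485 libraries held 162 to 175 CPM, against 432 to 435 CPM in DMSO libraries, and Dox replicate 1 again lay with the A-485 libraries. ABCC2 (MRP2), which exports conjugated bilirubin into bile, fell 2.56-fold (log2 fold change -1.36 ± 0.29 (SE), edgeR adjusted p = 0.00304). ABCB4, the phosphatidylcholine floppase of the canaliculus, averaged 24.0 ± 0.441 CPM in the A-485 libraries and 40.5 ± 1.27 CPM in the DMSO libraries and fell 1.69-fold (log2 fold change -0.75 ± 0.07 (SE), edgeR adjusted p = 6.78e-06).

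Of the 9 genes of drug and conjugate efflux, 3 rose, 4 fell and 2 were not called (26.3% of all genes rose and 27.1% fell), and the largest falls and several of the larger rises of the family were among them. ABCC3 had 2.98, 2.96 and 3.05 CPM in the A-485 and Dox libraries, 2.93, 3.19 and 3.18 CPM in the A-485 libraries, 44.5, 47.3 and 47.8 CPM in the Dox libraries and 36.0, 33.4 and 34.3 CPM in the DMSO libraries. The 6 libraries with A-485 lay between 2.93 and 3.19 CPM and every other library at 33.4 CPM or above. The fall of ABCC3 (MRP3) was 11.2-fold (log2 fold change -3.48 ± 0.07 (SE), edgeR adjusted p = 6.52e-10). ABCG2 had 1.17, 1.15 and 1.38 CPM in the A-485 and Dox libraries, 1.84, 1.86 and 1.64 CPM in the A-485 libraries, 12.3, 13.3 and 14.0 CPM in the Dox libraries and 15.1, 15.3 and 15.5 CPM in the DMSO libraries. ABCG2, an exporter of urate and many drugs, held 1.86 CPM or less in each of the 6 libraries with A-485 and fell 8.57-fold (log2 fold change -3.10 ± 0.10 (SE), edgeR adjusted p = 6.8e-09). ABCC6 had 43.5, 43.1 and 42.6 CPM in the A-485 and Dox libraries, 45.0, 45.8 and 46.2 CPM in the A-485 libraries, 153, 147 and 144 CPM in the Dox libraries and 95.4, 93.2 and 92.3 CPM in the DMSO libraries. ABCC6, which drives ATP release from hepatocytes and whose loss causes pseudoxanthoma elasticum, fell 2.05-fold (log2 fold change -1.04 ± 0.06 (SE), edgeR adjusted p = 2.18e-07). The pseudogene ABCC6P1, a near copy whose reads may be exchanged with it, averaged 16.3 ± 0.868 CPM in A-485 libraries and 42.9 ± 0.414 CPM in DMSO libraries, and ABCC6P2 averaged 4.53 ± 0.394 and 7.43 ± 0.185 CPM in the same order, so the ABCC6 value is uncertain to that extent. ABCC11 (MRP8), an exporter of cyclic nucleotides and steroid conjugates, averaged 1.80 ± 0.166 CPM in the A-485 libraries and 3.54 ± 0.338 CPM in the DMSO libraries and fell (log2 fold change -0.98 ± 0.28 (SE), edgeR adjusted p = 0.0153), a call lost on library totals at -0.63 and when any of 3 of the other libraries was left out.

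The rises in this class went to other MRP genes. ABCC10 had 52.9, 49.5 and 48.8 CPM in the A-485 and Dox libraries, 61.1, 59.2 and 60.1 CPM in the A-485 libraries, 40.0, 49.9 and 49.6 CPM in the Dox libraries and 35.6, 35.6 and 37.6 CPM in the DMSO libraries. All 3 A-485 libraries lay above all DMSO libraries, with Dox replicates 2 and 3 between them. ABCC10 (MRP7), a lipophilic drug exporter, rose 1.66-fold (log2 fold change 0.73 ± 0.09 (SE), edgeR adjusted p = 7.46e-05). ABCC1 (MRP1), which exports glutathione conjugates and leukotriene C4, averaged 257 ± 2.52 CPM in the A-485 libraries and 159.7 ± 3.85 CPM in the DMSO libraries and rose 1.61-fold (log2 fold change 0.69 ± 0.18 (SE), edgeR adjusted p = 0.0101). ABCC5 (MRP5), a cyclic nucleotide exporter, averaged 49.1 ± 1.73 CPM in the A-485 libraries and 26.3 ± 0.698 CPM in the DMSO libraries and rose (log2 fold change 0.90 ± 0.30 (SE), edgeR adjusted p = 0.0282), a call kept in 5 of the 11 fits that left out a library other than Dox replicate 1. ABCB1 (P-glycoprotein), the multidrug exporter, averaged 111 ± 3.15 CPM in the A-485 libraries and 93.8 ± 0.670 CPM in the DMSO libraries and was not called with all libraries (log2 fold change 0.24 ± 0.27 (SE), edgeR adjusted p = 0.478), and without Dox replicate 1 it was (0.24 ± 0.02, edgeR adjusted p = 4.24e-14). ABCC4 (MRP4), an exporter of cyclic nucleotides and bile salts, averaged 5.71 ± 0.162 CPM in the A-485 libraries and 9.64 ± 0.446 CPM in the DMSO libraries and was likewise not called (log2 fold change -0.76 ± 0.33 (SE), edgeR adjusted p = 0.0796). It was lower without Dox replicate 1 (-0.76 ± 0.06, edgeR adjusted p = 1.13e-15), and was also called with only the A-485 and DMSO libraries in the fit and by DESeq2 and limma-voom. On library totals ABCC4 was not called (-0.41, edgeR adjusted p = 0.410).

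Among genes of mitochondria and other organelles, ABCB9 rose and ABCB6 fell. ABCB6 had 0.603, 0.740 and 0.715 CPM in the A-485 and Dox libraries, 0.879, 0.546 and 0.706 CPM in the A-485 libraries, 1.79, 1.98 and 1.72 CPM in the Dox libraries and 2.27, 1.79 and 2.19 CPM in the DMSO libraries. ABCB6, a porphyrin transporter, was lower in all 6 libraries with A-485 than in any other library, at 32 to 51 counts per A-485 library and 75 to 102 counts per DMSO library, and fell 2.93-fold (log2 fold change -1.55 ± 0.18 (SE), edgeR adjusted p = 4e-05). A total of 54.7% of its exon length is shared on the same strand with AC068946.2, so reads there may have been counted for neither gene. ABCB9, a lysosomal peptide transporter with 24.5% of its exon length under genes of the opposite strand, averaged 14.5 ± 0.553 CPM in the A-485 libraries and 9.79 ± 0.399 CPM in the DMSO libraries and rose (log2 fold change 0.57 ± 0.12 (SE), edgeR adjusted p = 0.00238). ABCB10, which supports heme synthesis, was not called (log2 fold change -0.92 ± 0.36 (SE), edgeR adjusted p = 0.0580), and without Dox replicate 1 it was lower (-0.92 ± 0.03, edgeR adjusted p = 5.16e-33). ABCB8, linked to mitochondrial iron export, was not called (log2 fold change 0.26 ± 0.30 (SE), edgeR adjusted p = 0.496), and without Dox replicate 1 it was higher (0.26 ± 0.04, edgeR adjusted p = 4.37e-08).

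In the peroxisomal and lysosomal class, ABCD4 rose and ABCD3 was not called with all libraries. ABCD4, which releases cobalamin from lysosomes, averaged 48.6 ± 1.24 CPM in the A-485 libraries and 40.5 ± 0.846 CPM in the DMSO libraries and rose (log2 fold change 0.26 ± 0.06 (SE), edgeR adjusted p = 0.00419). ABCD3 (PMP70), the importer of branched-chain and bile acid intermediates, averaged 118 ± 2.41 CPM in the A-485 libraries and 166 ± 3.11 CPM in the DMSO libraries and was not called (log2 fold change -0.49 ± 0.22 (SE), edgeR adjusted p = 0.0860). It was lower without Dox replicate 1 (-0.49 ± 0.02, edgeR adjusted p = 1.37e-28), and was also called with only the A-485 and DMSO libraries in the fit and by limma-voom. On library totals ABCD3 was not called (-0.14, edgeR adjusted p = 0.707).

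Of the 4 translation proteins 1 fell, which is near the share over all genes (27.1% fell). ABCE1 had 62.7, 64.5 and 66.5 CPM in the A-485 and Dox libraries, 58.7, 56.0 and 54.5 CPM in the A-485 libraries, 61.9, 98.9 and 98.7 CPM in the Dox libraries and 92.6, 95.3 and 94.1 CPM in the DMSO libraries. ABCE1, which splits ribosomes after termination and has 11.9% of its exon length under genes of the opposite strand, was lower in all 6 libraries with A-485 than in DMSO and in Dox replicates 2 and 3 (log2 fold change -0.74 ± 0.15 (SE), edgeR adjusted p = 0.00237), and the call was lost on library totals at -0.39. ABCF1, a partner of the initiation factor eIF2, averaged 185 ± 1.75 CPM in the A-485 libraries and 199.7 ± 2.18 CPM in the DMSO libraries and was not called (log2 fold change -0.11 ± 0.08 (SE), edgeR adjusted p = 0.268), and on library totals its direction turned (0.24). ABCF2 (log2 fold change -0.04 ± 0.45 (SE), edgeR adjusted p = 0.950) and ABCF3 (log2 fold change 0.18 ± 0.23 (SE), edgeR adjusted p = 0.530) were not called. In the fit without Dox replicate 1, ABCF1 was lower (-0.11 ± 0.02, edgeR adjusted p = 1.3e-07), ABCF3 was higher (0.18 ± 0.03, edgeR adjusted p = 2.57e-07) and ABCF2 was again not called. ABCF2 shares 45.8% of its exon length with AC021097.2 on the same strand. Its 3 A-485 libraries overlapped the DMSO libraries.

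Genes that work with these transporters were counted in 9 lists, against 26.3% of all genes higher and 27.1% lower with all libraries, and 46.6% and 43.7% without Dox replicate 1. The short list names are loose. The canalicular list also holds receptors and uptake transporters, and the sterol efflux list also holds regulators and enzymes. Not every member of the drug transporter list is a transporter. TAP1 and TAP2, ABC proteins that load peptides for antigen presentation under other symbols, were the members of their 4-gene list in the table. TAP2 fell (log2 fold change -0.63, edgeR adjusted p = 0.0167) and TAP1 was not called (0.09, edgeR adjusted p = 0.830) with all libraries. Of 15 sterol efflux genes 2 rose and 7 fell, among them SREBF1 (-1.09), SOAT2 (-2.38) and SCARB1 (-1.93), with a list median of -0.59. Of 17 genes in the list of canalicular bile partners 4 rose and 9 fell (median -1.09), led by NR1H4, which encodes the bile acid receptor FXR (-5.42), the uptake transporter SLCO2B1 (-4.87) and the scaffold PDZK1 (-2.78). NR1H4 averaged 0.836 CPM in the A-485 libraries and 36.0 CPM in the DMSO libraries. Of 11 drug transporters that are not ABC proteins 1 rose and 7 fell (median -1.91), with SLC47A1 at -2.60 and SLC19A1 at -2.22. SLC22A7, an organic anion transporter, averaged 0.0230 CPM in the A-485 libraries and 6.30 CPM in the DMSO libraries. Each of these 3 list medians was negative on library totals too, at -0.24, -0.74 and -1.56.

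Of 16 xenobiotic and oxidant sensors and targets 2 rose and 10 fell (median -0.39, and -0.04 on library totals). AHR (-0.81), NFE2L2, which encodes NRF2 (-0.43), HMOX1 (-1.15), POR (-1.68) and NR1I3, which encodes CAR (-1.58), fell, and NR1I2, which encodes PXR, rose (0.35). On library totals the NFE2L2 value was -0.08. Among the other regulators named by the rule, HNF4A (-2.93) and SREBF2 (-1.28) fell. The LXR genes NR1H3 (-0.32, edgeR adjusted p = 0.342) and NR1H2 (0.45, edgeR adjusted p = 0.350) and PPARA (-0.25, edgeR adjusted p = 0.0896) were not called with all libraries. Leaving out Dox replicate 1 called NR1H3 and PPARA lower and NR1H2 and TAP1 higher, at the same log2 fold changes to 2 decimals. The values of NR1H3 (0.03) and PPARA (0.11) were positive on library totals. Medians changed sign with scaling in the TAP1 and TAP2 list (-0.27, and 0.08 on library totals) and in 3 others. Of 30 iron-sulfur and heme genes 4 rose and 9 fell (median -0.19, and 0.16 on library totals), with HSPA9 (-0.78) and GLRX5 (-1.18) lower. Of 32 peroxisomal genes 6 rose and 13 fell (-0.16, and 0.19 on library totals), with ACAA1 (-1.48), ACOX2 (-1.59) and HSD17B4 (-1.01) lower. Of 28 ribosome rescue and initiation genes 4 rose and 8 fell (-0.18, and 0.17 on library totals), with EIF3B lower (-1.03) and EIF5 higher (0.81). Of 17 sphingolipid and lysosomal lipid genes 7 rose and 2 fell (median 0.23), with SMPD1 higher (2.37) and LIPA lower (-1.61). With Dox replicate 1 left out the list medians were the same to 2 decimals. The counts higher and lower were then 4 and 11 of 15 sterol efflux genes, 4 and 12 of 17 canalicular genes, 1 and 9 of 11 drug transporters, 3 and 12 of 16 sensors and targets, 7 and 19 of 30 iron-sulfur and heme genes, 12 and 18 of 32 peroxisomal genes, 8 and 19 of 28 ribosome genes and 9 and 5 of 17 sphingolipid genes.

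Doxycycline alone was followed by fewer calls, and 0 of 30 ABC genes were called at 2-fold or more in either direction (2.17% of all genes higher and 0.918% lower). ABCC6, ABCD4, ABCC3, ABCC10 and ABCA7 rose and ABCD3 and ABCA2 fell. These are 5 of 30 higher (16.7%, against 9.01% of all genes) and 2 of 30 lower (6.67%, against 7.08%), and all 7 were called in the same direction without Dox replicate 1. Once that library was left out, 17 ABC genes rose and 9 fell (32.8% and 33.3% of all genes). With only the Dox and DMSO libraries in the fit, edgeR called 0 ABC genes, with 6 at an unadjusted p under 0.05, and DESeq2 with all libraries called 7 higher and 4 lower. The Dox libraries lay wholly above the DMSO libraries in 9 ABC genes (19.7% of all genes) and wholly below in 7 (20.5%). This comparison and that of A-485 with DMSO share the DMSO libraries.

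ABCC6, whose reads may be exchanged with ABCC6P1 and ABCC6P2, had the smallest adjusted p. Its 3 Dox libraries (144 to 153 CPM) lay above its 3 DMSO libraries (92.3 to 95.4 CPM) and it rose 1.58-fold (log2 fold change 0.66 ± 0.06 (SE), edgeR adjusted p = 7.4e-05), with a log2 fold change of 0.64 without Dox replicate 1. ABCC3 rose 1.34-fold (log2 fold change 0.43 ± 0.07 (SE), edgeR adjusted p = 0.00219), and Dox replicate 1, at 44.5 CPM, lay close to the other Dox libraries. ABCC10 rose 1.28-fold (log2 fold change 0.36 ± 0.09 (SE), edgeR adjusted p = 0.0252), a call kept in 6 of the 11 fits that left out another library. ABCD4, the lysosomal cobalamin transporter, averaged 54.6 ± 0.487 CPM in the Dox libraries and 40.5 ± 0.846 CPM in the DMSO libraries and rose (log2 fold change 0.43 ± 0.06 (SE), edgeR adjusted p = 0.00141). ABCA7 averaged 96.2 ± 1.52 CPM in the Dox libraries and 81.2 ± 0.522 CPM in the DMSO libraries and rose (log2 fold change 0.24 ± 0.06 (SE), edgeR adjusted p = 0.0189). The ABCA7 call was kept in 8 of the 11 fits that left out another library. With the replicate block the ABCA7 and ABCC10 calls were lost. On library totals ABCC6 kept its call (log2 fold change 0.59) and the other 4 did not.

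On the lower side, ABCD3 had 53.8, 109.7 and 112 CPM in the Dox libraries and 163, 169 and 165 CPM in the DMSO libraries. Every Dox library was below every DMSO library, and replicate 1 was the lowest (log2 fold change -0.85 ± 0.22 (SE), edgeR adjusted p = 0.0284, and -0.58 without Dox replicate 1). ABCA2 averaged 34.1 ± 3.22 CPM in the Dox libraries and 48.1 ± 0.608 CPM in the DMSO libraries and fell (log2 fold change -0.50 ± 0.08 (SE), edgeR adjusted p = 0.00276). Neither was called on library totals. ABCD3 kept its call in 8 of the 11 fits that left out another library, and ABCA2 in 11. ABCA1 was not called with all libraries (log2 fold change -0.76 ± 0.38 (SE), edgeR adjusted p = 0.194), although each Dox library was below each DMSO library. Its log2 fold change was -0.36 ± 0.03, edgeR adjusted p = 3.86e-17, when replicate 1 was left out. ABCC2 was not called either (log2 fold change -0.39 ± 0.29 (SE), edgeR adjusted p = 0.355), and without that library it was lower at -0.06 (edgeR adjusted p = 0.0189). Several other values turned on Dox replicate 1. ABCF2 had 37.2, 8.95 and 10.1 CPM in Dox libraries against 8.79, 9.32 and 8.81 CPM in DMSO libraries, and its log2 fold change was 1.06 with all libraries and 0.09 without replicate 1, called in neither. ABCB8 stood at 0.73 with all libraries and 0.15 without it.

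In the fit without Dox replicate 1, 8 of the 9 efflux genes were higher and 1 was lower (32.8% and 33.3% of all genes). ABCC10 (0.45), ABCB1 (0.42), ABCC4 (0.40), ABCC11 (0.35), ABCC5 (0.23) and ABCC1 (0.12) were among the higher, and ABCG2 was the lower (-0.16). Of these, ABCC5 and ABCC1 had negative values with all libraries, -0.11 and -0.12. In the same fit ABCA5 (0.43), ABCA3 (0.36), ABCB4 (0.26) and ABCG5 (0.20) were higher, and ABCG8 (-0.18), ABCF1 (-0.16), ABCB10 (-0.12) and ABCF3 (-0.12) were lower. ABCE1 (0.07) was higher. ABCB6 (-0.18) and ABCB9 (-0.14) were not called.

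**Figure D4:**
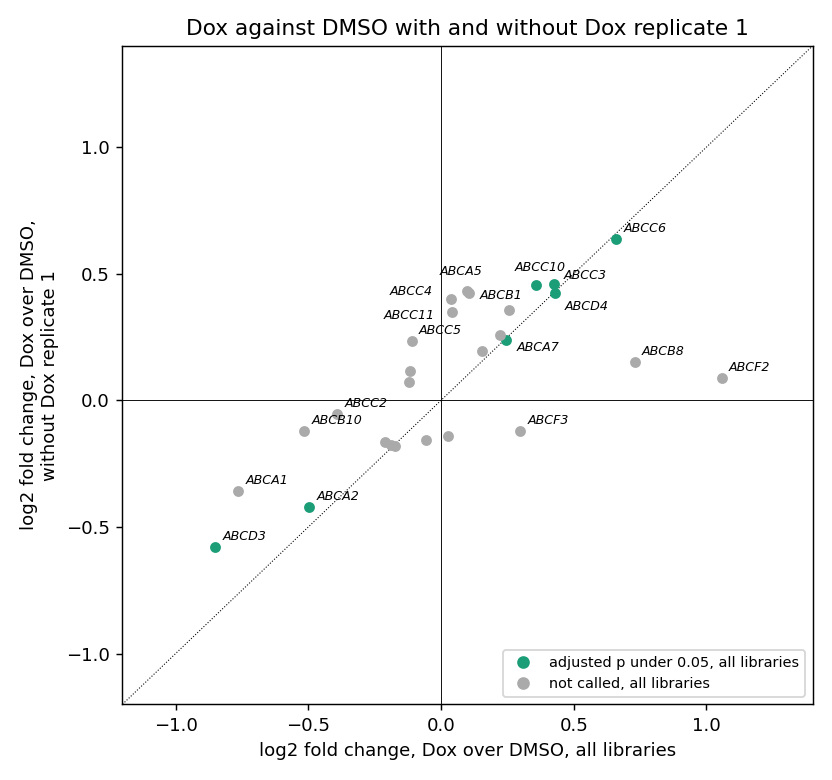
Each point is 1 of 28 ABC genes, with the log2 fold change of Dox over DMSO from all libraries on the horizontal axis and without Dox replicate 1 on the vertical axis, green where called with all libraries, and the dotted line marks equality. The green points lie near the line, apart from ABCD3, and ABCF2, ABCB8, ABCF3 and ABCA1 lie far from it.

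Partner genes were counted against 9.01% of all genes higher and 7.08% lower with all libraries. NR1H4 rose with doxycycline (log2 fold change 1.54, edgeR adjusted p = 3.08e-06), whereas the canalicular genes VIL1 (-0.62) and EZR (-0.35) fell. Of the 11 drug transporters that are not ABC proteins 4 rose, among them SLC22A9 (0.88) and SLC19A1 (0.48). CYP1A1 (0.94) and MAFG (0.86) rose and HMOX1 (-0.80) fell among 16 sensor and target genes, of which 4 rose and 2 fell. Of 32 peroxisomal genes 3 rose and 3 fell, PEX2 (-0.34) and SCP2 (-0.43) among the lower. Of the 30 iron-sulfur and heme genes 3 rose, HSPA9 (0.56) among them. EIF5 (0.95) and SMPD1 (0.99) rose in their lists. HNF4A, AHR, NFE2L2, SREBF2 and PPARA were not called with all libraries. The genes named here as called were called in the same direction without Dox replicate 1, with NR1H4 at 1.58, EIF5 at 0.75 and HMOX1 at -0.66. In that fit HNF4A (0.23), AHR (0.20) and NFE2L2 (0.28) were higher, SREBF2 (-0.10) was lower and PPARA was not called. The list counts in that fit, against 32.8% of all genes higher and 33.3% lower, were 6 higher and 2 lower among drug transporters, 9 and 4 among sensors and targets, 14 and 15 among peroxisomal genes and 10 and 12 among iron-sulfur and heme genes.

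The A-485 and Dox libraries were set against the Dox libraries to ask what A-485 changes while doxycycline is present. ABCC3, ABCG2, ABCC6 and ABCB6 fell at least 2-fold and ABCA3 rose at least 2-fold, with and without Dox replicate 1 (9.03% of all genes rose and 14.7% fell by as much without it). In all, 6 of 30 ABC genes rose (20.0%, against 27.1% of all genes) and 13 fell (43.3%, against 32.9%), with 1 at least 2-fold higher (9.69% of all genes) and 8 at least 2-fold lower (18.8%). With Dox replicate 1 left out, 9 rose and 18 fell (44.2% and 43.6% of all genes), and on library totals 11 rose and 7 fell (42.1% and 20.7%). The ABC median was -0.34 against -0.06 for all genes, and on library totals 0.12 against 0.36. On library totals ABCC1 (1.19), ABCC5 (1.12) and ABCG5 (1.08) were also called at least 2-fold higher. ABCC3 fell 15.5-fold (log2 fold change -3.96 ± 0.07 (SE), edgeR adjusted p = 3.64e-10) and ABCG2 fell 10.7-fold (log2 fold change -3.42 ± 0.10 (SE), edgeR adjusted p = 4.1e-09). ABCC6 fell 3.43-fold (log2 fold change -1.78 ± 0.06 (SE), edgeR adjusted p = 7.12e-09) and ABCB6 fell 2.66-fold (log2 fold change -1.41 ± 0.18 (SE), edgeR adjusted p = 8.43e-05). ABCA3 rose 2.89-fold (log2 fold change 1.53 ± 0.12 (SE), edgeR adjusted p = 3.41e-06). In each of these 5 genes the A-485 and Dox libraries overlapped no Dox library (over all genes, 34% lay above without overlap and 33.7% below).

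A further 3 falls of 2-fold or more moved with Dox replicate 1. ABCC2 had a log2 fold change of -1.15 with all libraries (edgeR adjusted p = 0.00703) and -1.49 without it, and the call was lost on library totals. ABCA1 had -1.06 with all libraries (edgeR adjusted p = 0.0373) and -1.47 without it, and Dox replicate 1 (27.1 CPM) lay below the A-485 and Dox libraries (37.1 to 38.5 CPM). The ABCA1 call with all libraries was lost in each of the 11 fits that left out another library. ABCF2 had -1.16 with all libraries (edgeR adjusted p = 0.0491) and -0.19 without Dox replicate 1. Its call was kept in 2 of the 11 fits that left out another library and was lost on library totals, at a mean CPM of 5 or more, with the replicate block and with only these 2 groups in the fit.

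Smaller falls were called for ABCB4 (-0.75), ABCA7 (-0.71), ABCE1 (-0.42), ABCA2 (-0.26) and ABCG8 (-0.16), and on library totals ABCA2 and ABCG8 had log2 fold changes of 0.13 and 0.25. With that library left out the 5 values were -0.78, -0.70, -0.61, -0.34 and -0.16 in the same order. Rises were called for ABCC1 (0.83), ABCC5 (0.78), ABCG5 (0.67) and ABCB9 (0.37), which stood at 0.60, 0.44, 0.63 and 0.54 without that library. ABCE1 and ABCG8 kept their calls in 0 of the 11 fits that left out another library, ABCC5 in 2, ABCB9 in 7 and ABCA2 in 9. With only these 2 groups in the fit, ABCA2, ABCE1, ABCG8, ABCC1, ABCC5 and ABCB9 were not called, and on library totals ABCE1 was at -0.05. ABCB1 averaged 155 ± 2.96 CPM in the A-485 and Dox libraries and 101 ± 42.9 CPM in the Dox libraries, was not called with all libraries (log2 fold change 0.62 ± 0.27 (SE), edgeR adjusted p = 0.0696), and was higher without Dox replicate 1 (0.30 ± 0.02, edgeR adjusted p = 4.66e-17). ABCC10, ABCD4, ABCD3, ABCA5, ABCC4, ABCC11, ABCB8, ABCB10, ABCF1 and ABCF3 were not called with all libraries. Of these, ABCC4 (-1.13), ABCC11 (-0.92), ABCB10 (-0.76), ABCD3 (-0.17) and ABCF1 (-0.07) were lower and ABCA5 (0.28) and ABCB8 (0.26) higher without Dox replicate 1.

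Of 15 sterol efflux genes 2 rose and 8 fell, of 17 canalicular genes 3 rose and 9 fell, of 11 other drug transporters 9 fell, and of 16 sensors and targets 3 rose and 9 fell (27.1% of all genes rose and 32.9% fell). When that fit omitted Dox replicate 1, the counts became 4 and 11, 5 and 12, 1 and 9, and 3 and 13 in that order (44.2% and 43.6% of all genes). Medians were -0.80, -0.97, -1.85 and -0.51 with all libraries, -0.79, -1.12, -1.79 and -0.38 without Dox replicate 1, and -0.33, -0.59, -1.41 and -0.07 on library totals. HNF4A (-3.19, and -3.28 without Dox replicate 1) and NR1H4 (-4.85, and -4.88) fell. NR1H4 averaged 3.63 CPM in the A-485 and Dox libraries and 105 CPM in the Dox libraries.

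Doxycycline was then compared in the presence of A-485, as A-485 and Dox against A-485 alone. In edgeR with all libraries 0 of 30 ABC genes rose (3.74% of all genes did) and 4 fell (3.66%), with 9 at an unadjusted p under 0.05 in either direction, and DESeq2 called 3 higher. ABCG2, ABCA2 and ABCG8 were among the falls. ABCG2 had 1.17, 1.15 and 1.38 CPM in A-485 and Dox libraries against 1.84, 1.86 and 1.64 CPM in A-485 libraries (log2 fold change -0.53 ± 0.10 (SE), edgeR adjusted p = 0.0102). ABCA2 averaged 28.5 ± 1.32 CPM in the A-485 and Dox libraries and 38.5 ± 0.793 CPM in the A-485 libraries (log2 fold change -0.44 ± 0.08 (SE), edgeR adjusted p = 0.00890). ABCG8 averaged 15.6 ± 0.584 CPM in the A-485 and Dox libraries and 18.7 ± 0.712 CPM in the A-485 libraries (log2 fold change -0.26 ± 0.06 (SE), edgeR adjusted p = 0.0333). None of these 3 was called on library totals. In the 11 fits that left out a library other than Dox replicate 1, ABCA2 kept its call in 10, ABCG2 in 7 and ABCG8 in 2. The ABCG8 call was also lost with the replicate block.

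Dox replicate 1 is in neither group here and enters only through the shared estimate of spread. Without it 10 ABC genes rose and 13 fell (29.9% and 36.1% of all genes). The A-485 and Dox libraries lay wholly above the A-485 libraries in 11 ABC genes (30.4% of all genes) and wholly below in 12 (36.7%). ABCB1 averaged 155 ± 2.96 CPM in the A-485 and Dox libraries and 111 ± 3.15 CPM in the A-485 libraries and had the largest positive value, 0.49 with all libraries (edgeR adjusted p = 0.399) and 0.49 ± 0.02, edgeR adjusted p = 5.8e-27 without Dox replicate 1. ABCC11 (0.41), ABCA3 (0.28), ABCB4 (0.23), ABCE1 (0.20) and ABCG5 (0.19) followed among the higher. ABCF3 (-0.27), ABCC10 (-0.25), ABCD3 (-0.25), ABCC5 (-0.23) and ABCC2 (-0.19) were among the lower. ABCC3 (-0.05) and ABCC4 (0.03) were not called. ABCG5 rose and ABCG8 fell in this fit without Dox replicate 1, at 0.19 and -0.26. Of the 17 canalicular genes 1 rose and 4 fell with all libraries (3.74% and 3.66% of all genes), with 2 and 11 when Dox replicate 1 was left out, and no other list had more than 3 calls with all libraries.

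The interaction asks whether the doxycycline effect differs when CBP and p300 are inhibited, and is the log2 effect of doxycycline with A-485 minus that without it. Negative interactions were called for 4 of 30 ABC genes (13.3%, against 1.32% of all genes), with ABCC6, ABCC10 and ABCC3 among them, and 0 of 30 were positive (1.25% of all genes), with 7 at an unadjusted p under 0.05 in either direction by edgeR. DESeq2 called 0 positive and 6 negative, for which the shares over all genes were not computed. Without Dox replicate 1, 4 were positive and 13 negative (21.8% and 26.6% of all genes), and all 4 were called again in the same direction. ABCC6 had doxycycline effects of -0.08 with A-485 and 0.66 without it, an interaction of -0.74 ± 0.08 (SE, edgeR adjusted p = 0.00207). The pseudogene ABCC6P1 averaged 11.2, 16.3, 47.1 and 42.9 CPM in the A-485 and Dox, A-485, Dox and DMSO libraries. ABCC6P2 averaged 2.63, 4.53, 6.74 and 7.43 CPM in the same order, and 5.09 CPM in Dox replicates 2 and 3. How far exchanged reads alter the ABCC6 values was not tested. ABCC6 alone kept its call in all 11 fits that left out a library other than Dox replicate 1, and on library totals it missed the threshold (edgeR adjusted p = 0.0505).

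ABCC10 had doxycycline effects of -0.25 with A-485 and 0.36 without it, and an interaction of -0.61 (edgeR adjusted p = 0.0376). ABCC3 had doxycycline effects of -0.05 with A-485 and 0.43 without it, and an interaction of -0.48 (edgeR adjusted p = 0.0305). ABCC10 and ABCC3 were called in 0 of the 11 fits that left out another library. Their calls were also lost on library totals (-0.57 and -0.42) and with the replicate block. When Dox replicate 1 was left out, values of ABCC5 (-0.46), ABCC4 (-0.37), ABCG2 (-0.37) and ABCA5 (-0.30) were also called negative, and those of ABCD3 (0.33), ABCA1 (0.26), ABCB10 (0.16) and ABCE1 (0.12) were called positive.

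**Figure D5:**
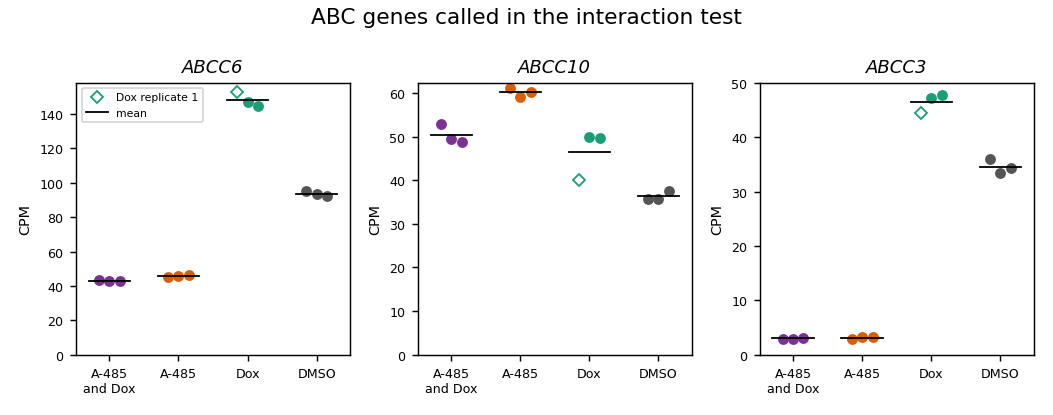
Each panel shows CPM in every library by group for 3 ABC genes called in the interaction, with a bar at the group mean and Dox replicate 1 as an open diamond. The Dox libraries lie above the DMSO libraries in each panel, and the A-485 and Dox mean lies below the A-485 mean in each, by little in ABCC3.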

How the data were processed

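The deposited values are raw counts per Ensembl gene, whole numbers in 12 columns, 1 per HepG2 library. Per the submitters' processing notes, the authors used STAR 2.6.0a for alignment, HTSeq 0.10.0 for counting and the GRCh38 build. No source used here gives the strand setting of HTSeq, so an antisense neighbour may add reads to a gene. Reads in exons shared by genes may be in the ambiguous share. In each of the 13511 genes the second-highest CPM is at least 1.23, which shows a filter before deposit. The 4 rows that name no gene were left out. They held 9.10 to 12.3% of reads as ambiguous, 2.96 to 3.76% as aligned to several places, 3.30 to 4.09% as outside genes and 1.80 to 8.93% as unmapped. Gene totals were 46600324 to 51773300 per library, and reads carry no molecular identifiers.

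Groups and replicate numbers come from the sample titles. Counts were tested in R 4.3.3 with edgeR 4.0.16 (filterByExpr, which removed 0 genes, TMM scaling, robust glmQLFit, glmQLFTest), 1 coefficient per group, all 12 libraries in the fit, Benjamini-Hochberg adjustment over all genes and calls at an adjusted p under 0.05. Each SE is the log2 fold change divided by the square root of its F statistic. CPM use totals scaled by TMM, and SDs are over the 3 libraries of a group. The fit was run on simulated counts with no outlying library, as a check of the code. This does not test the fit under the spread that Dox replicate 1 brings. Alternatives were DESeq2 1.42.0, limma 3.58.1 (voom with sample quality weights), library totals without TMM, a mean CPM of 5 or more, only the groups compared, a replicate block and each of the 12 libraries left out in turn. Shares over all genes are given for the edgeR fit with all libraries, without Dox replicate 1 and for some comparisons on library totals. They were not computed for the other alternatives. Tables were made with Python 3.11.15 and pandas 2.3.3.

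The members, roles and lists were chosen with earlier results of these data known. Of the 30 ABC genes, 28 are named, and individual values of the others and of some list genes are not reported here. Values in every library are given for genes called with at least a 2-fold difference against DMSO with A-485 or with Dox alone, genes called in the interaction and the sole member of a subfamily. Up to 3 genes per list with the smallest p, and 10 fixed regulators, are named from the lists. Positions, exon lengths and overlaps are from GENCODE 29, and promoters are from RefSeq. No protein sequence was used here. With 3 libraries a group, precision is limited by the spread between them.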

Additional observations from a re-analysis of the deposited data

Results flagged for a closer look

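ABCC6, ABCC10 and ABCC3, called in the interaction, are listed for a closer look because the doxycycline effect with A-485 differed from that without it, in an edgeR test of the difference itself. The differences, as the log2 effect of doxycycline with A-485 minus that without it, were -0.74 for ABCC6, -0.61 for ABCC10 and -0.48 for ABCC3. Without Dox replicate 1 they were -0.72, -0.71 and -0.51 in the same order, each still called. When another library was left out, ABCC6 kept its call in 11 of 11 fits, and ABCC10 and ABCC3 in 0. On library totals none of these genes was called (edgeR adjusted p = 0.0505, 0.334 and 0.364 in the same order). With the replicate block ABCC10 and ABCC3 were not called.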

How the results depend on the processing

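The counts of called ABC genes moved with Dox replicate 1, with the scaling and with the libraries in the fit. The cause was not tested. Counts are higher then lower throughout. Most have no share over all genes beside them, so they show dependence on processing and nothing particular to ABC genes. On library totals they were 7 lower for A-485 against DMSO, 2 and 0 for Dox against DMSO, 11 and 7 for A-485 and Dox against Dox, 1 lower for the interaction and 1 lower for A-485 and Dox against A-485. With only the groups compared in the edgeR fit they were 0 and 0 for Dox against DMSO, 3 and 7 for A-485 and Dox against Dox and 12 and 11 for A-485 and Dox against A-485. This setting is not defined for the interaction. With limma-voom quality weights, under which Dox replicate 1 had a weight of 0.00376, they were 17 and 9 for Dox against DMSO, 4 and 13 for the interaction and 10 and 13 for A-485 and Dox against A-485. DESeq2 gave 4 lower for Dox against DMSO and 3 higher for A-485 and Dox against A-485, where a mean CPM of 5 or more gave 1 higher. Of the DESeq2 adjusted p values, 240 over all genes were NA and stayed so. The replicate numbers are not stated to mark a shared culture or day. Deviations of same-numbered libraries had correlations of -0.317 to 0.148 over 18 pairs, against -0.306 to 0.316 over 36 pairs with other numbers. The ends of both ranges came from pairs with a Dox library, where deviations from the group mean turn on Dox replicate 1. Whether the numbers pair the libraries can therefore not be judged from these correlations. With the replicate block 3 rose for Dox against DMSO, 1 had a negative interaction and 2 fell for A-485 and Dox against A-485.

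Leaving out 1 library at a time gave 7 to 12 higher and 10 to 16 lower for A-485 against DMSO, 3 to 17 and 1 to 9 for Dox against DMSO, 4 to 9 and 8 to 18 for A-485 and Dox against Dox, 0 to 4 and 1 to 13 for the interaction and 0 to 10 and 1 to 13 for A-485 and Dox against A-485. Listed next are log2 fold changes that changed sign and were called with all libraries or in the alternative. Sign changes of values called in neither are left out. On library totals these were ABCA2 (0.0289 for A-485 against DMSO, 0.1346 for A-485 and Dox against Dox), ABCF1 (0.2373 and 0.2575 in the same comparisons) and ABCG8 (0.2485 for A-485 and Dox against Dox). For the others the range over single libraries left out has its called sign change at Dox replicate 1, and the value with quality weights follows it. For Dox against DMSO they were ABCC1 (-0.2478 to 0.1162, and 0.118), ABCC5 (-0.3196 to 0.2336, and 0.2352), ABCE1 (-0.2252 to 0.07136, and 0.07184) and ABCF3 (-0.1198 to 0.4752, and -0.1214). For A-485 and Dox against Dox they were ABCB8 (-0.5524 to 0.2631, and 0.2632) and ABCD3 (-0.1655 to 0.273, and -0.1648). For the interaction they were ABCA5 (-0.3046 to 0.2389, and -0.3161), ABCC1 (-0.09117 to 0.2728, and -0.09034) and ABCC2 (-0.1302 to 0.4243, and -0.1324).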
